A study of Homo sapiens with 15 samples.

Results

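The 10 genes described here encode the enzymes and regulators of polyamine metabolism, and they are ODC1, AMD1, SRM and SMS for synthesis, SAT1, SMOX and PAOX for breakdown, and OAZ1, OAZ2 and AZIN1 for control of ornithine decarboxylase. They were matched by gene symbol among the 60649 gene rows of the count table, all 10 were found, and all 10 were above the filter on low counts, which left 23711 genes for testing. The set was chosen because the level of ODC1 was low at 0.15 µM and high at 1 µM of the drug, so those differences of ODC1 are given below as a description, without a test, and counts of genes cover the other 9.

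Messenger RNA was sequenced from K562 cells, an established BCR-ABL1-positive chronic myeloid leukemia line, after 24 h with martinostat, a hydroxamic acid inhibitor of histone deacetylases (HDACs). Of the 5 groups of 3 libraries, one was untreated and the others received martinostat at 0.15 µM, 0.25 µM, 0.5 µM or 1 µM; the labels name no other treatment and no introduced allele for any of the 15. The groups therefore stand for a single cell line at a single time point, and the 3 replicates of each group are described as independent biological ones. Counts summed to 23755510 to 32805574 per library. Values are CPM, the count relative to the library size corrected with TMM (trimmed mean of M values), fold changes are on the log2 scale with standard errors (SE), and a gene was called when its adjusted p from edgeR's quasi-likelihood test was below 0.05.

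Putrescine is made from ornithine by ornithine decarboxylase (ODC1), and spermidine and spermine are then built by adding aminopropyl groups from decarboxylated S-adenosylmethionine. Spermidine/spermine N1-acetyltransferase (SAT1) and the oxidases run the path backwards. The pathway is held in balance by antizymes, whose translation needs a ribosomal frameshift that polyamines promote, and which carry ornithine decarboxylase to the proteasome. Fast-growing cells keep ODC1 high, and ODC1 is a textbook target of the transcription factor MYC through the CACGTG E-box. These feedback steps act largely on translation and protein stability, which messenger RNA counts do not measure.

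Promoter sequences were available in the RefSeq table (GRCh38.p14) for 7 of the 10 genes, and 4 stretches are shown because they belong to the genes with the largest range over the doses. The capitals mark CACGTG (the same on both strands), GGGCGG or its reverse complement CCGCCC (the GC box), and CCAAT or its reverse complement ATTGG. The first, chr2:10448328-10448577 on the minus strand, is the 250 bases before the GENCODE start of ODC1. The second, chr2:10447998-10448062 on the minus strand, lies downstream of that start and holds 2 copies of CACGTG, 34 bases apart, at positions 10448036 to 10448041 and 10448002 to 10448007. Both copies lie past exon 1 of the canonical transcript (10448121 to 10448327) and so in its first intron, and GENCODE also places exons of 2 other ODC1 transcripts over them. The third, chr1:11060019-11060268 on the minus strand, precedes the RefSeq start of SRM, and the fourth, chrX:23782923-23783172 on the plus strand, precedes that of SAT1.
ODC1 before the start: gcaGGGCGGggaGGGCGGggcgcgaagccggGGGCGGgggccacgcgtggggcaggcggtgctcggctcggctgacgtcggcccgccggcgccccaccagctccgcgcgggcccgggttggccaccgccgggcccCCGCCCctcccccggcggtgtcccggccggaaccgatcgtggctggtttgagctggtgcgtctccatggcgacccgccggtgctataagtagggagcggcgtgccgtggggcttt
ODC1 intron 1: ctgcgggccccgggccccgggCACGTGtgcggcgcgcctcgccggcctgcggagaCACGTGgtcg
SRM before the start: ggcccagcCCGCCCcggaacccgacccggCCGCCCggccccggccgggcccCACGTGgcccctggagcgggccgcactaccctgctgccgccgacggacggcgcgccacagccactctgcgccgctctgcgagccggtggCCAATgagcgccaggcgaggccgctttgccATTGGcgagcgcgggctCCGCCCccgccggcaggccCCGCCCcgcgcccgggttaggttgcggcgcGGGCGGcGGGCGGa
SAT1 before the start: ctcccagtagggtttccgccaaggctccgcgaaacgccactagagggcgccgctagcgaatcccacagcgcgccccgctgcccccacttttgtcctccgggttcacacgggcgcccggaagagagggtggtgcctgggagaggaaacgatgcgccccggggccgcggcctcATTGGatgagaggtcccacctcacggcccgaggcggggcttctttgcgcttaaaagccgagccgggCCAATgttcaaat

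In windows from 250 bases before to 50 after each RefSeq start, CACGTG was found for 2 of the 7 genes (ODC1 and SRM), GGGCGG for 6 and CCAAT for 5. Of 35116 promoters in the same table, 7.26% held CACGTG, 45.0% GGGCGG and 34.6% CCAAT on either strand. A gene with several starts had several windows, 10 for the 7 genes, and was counted when any of them held the motif. The background counts single promoters, so the 2 kinds of share are not alike. These matches describe letters in a window, not occupied sites.

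Beyond the 10 genes, a few facts of the libraries bear on every value. All 9 markers of K562 cells lay between 95.9 and 1344 CPM in the untreated libraries, and of 8 markers of other cell types 4 were under 1 CPM, while EPCAM reached 148 CPM and ALB 16.4 CPM. The libraries labelled replicate 3 at 0.25 µM and at 0.5 µM stood apart most from their groups. Changes at these doses are also given without both for the genes in which they differed most. Replicate 3 at 0.15 µM and replicate 2 at 1 µM also differed more from their groups than the remaining libraries did from each other. Among all tested genes the median log2 change against untreated was 0.28, 0.32, 0.34 and 0.32 at the rising doses with TMM scaling, and 0.64, 0.85, 0.72 and 0.67 when libraries were scaled by their totals. At 0.15 µM this scaling turned 7557 genes higher and 4591 lower into 9582 higher and 2118 lower, so small changes are read against these medians. In bulk RNA, fewer cells with a transcript and less transcript per cell cannot be told apart.

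Of the 9 genes other than ODC1, 4 were higher and 4 lower than untreated at each of the 4 doses, and OAZ1 alone was not called. The background was high: at the rising doses edgeR called 51.2%, 62.3%, 66.9% and 66.2% of all tested genes. Higher genes made up 31.9%, 37.4%, 39.4% and 38.8% of those tested, and lower genes 19.4%, 24.8%, 27.6% and 27.5%. With libraries scaled by totals or by TMM factors estimated on genes with 10 CPM or more, and with limma on the deposited FPKM, AZIN1 was no longer called at any dose. The 3 other synthesis genes were lower and the 3 breakdown genes higher at every dose, as the plot of fold changes shows. Among the 5 groups as a whole, 8 of these 9 genes differed, against 73.6% of all tested genes.

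**Figure D1:**
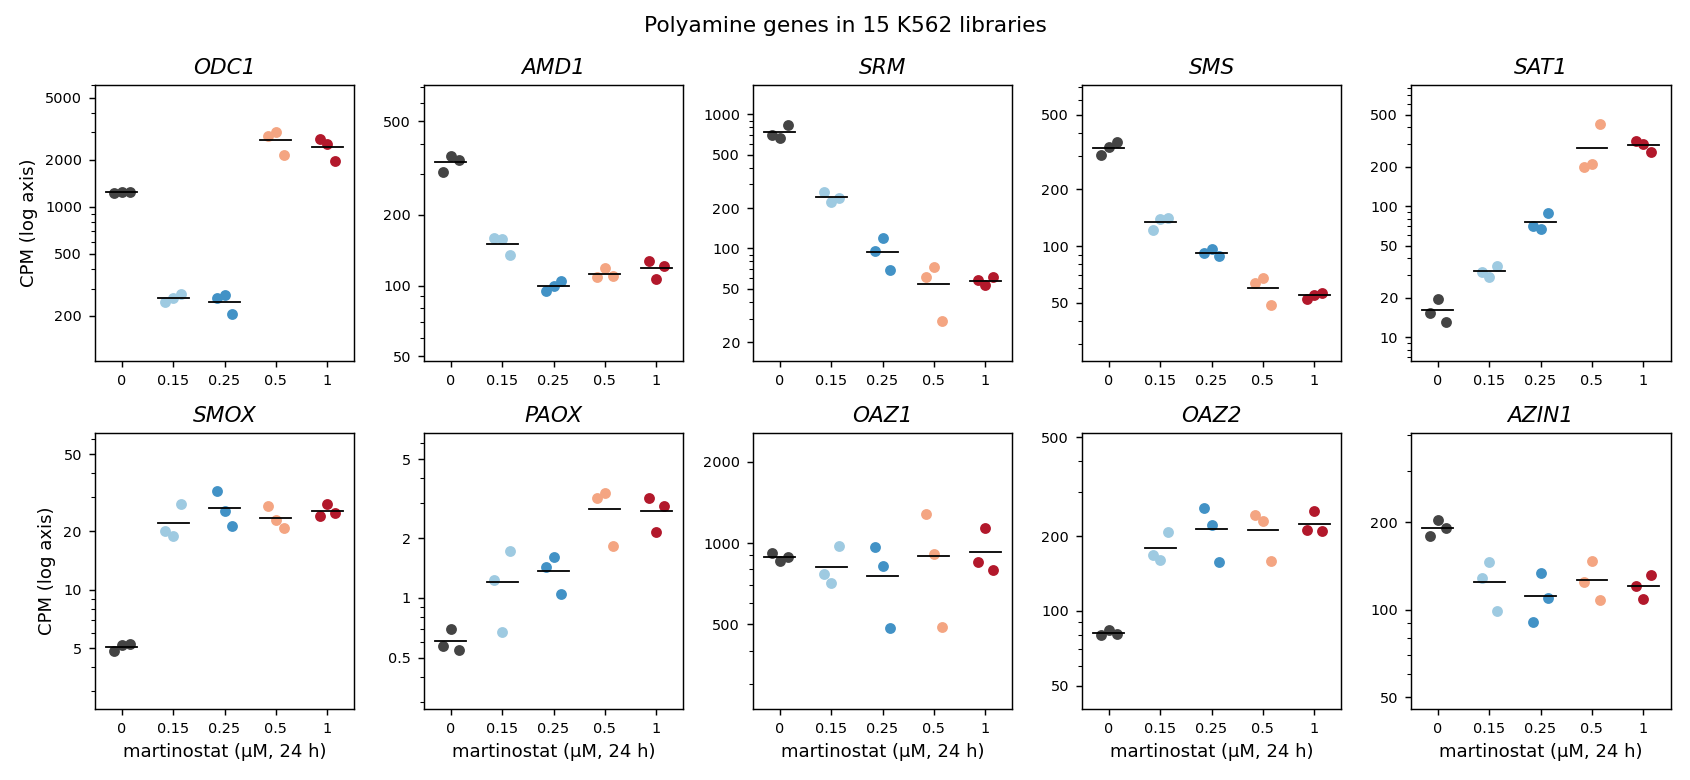
CPM (log axis) of each of the 10 genes against martinostat concentration (0 is untreated), with 1 point per library and a bar at the mean of the 3 libraries. ODC1 lies between 205 and 275 CPM at 0.15 and 0.25 µM and between 1978 and 3025 CPM at 0.5 and 1 µM, while SRM and SMS are lower and SAT1 is higher at every dose than untreated.

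ODC1, the rate-limiting enzyme of polyamine synthesis, changed direction along the doses. The gene (ENSG00000115758.13) lies at chr2:10439968-10448327 on the minus strand (hg38). Untreated libraries gave 1221, 1255 and 1250 CPM. At 0.15 µM the libraries gave 244, 260 and 275 CPM, and at 0.25 µM 262, 273 and 205 CPM. At 0.5 µM they gave 2865, 3025 and 2147 CPM, and at 1 µM 2718, 2529 and 1978 CPM. No library of a lower-dose group reached the untreated range, and every library of the 2 higher doses exceeded it. The log2 difference from untreated was -2.26 ± 0.18 at 0.15 µM and 0.96 ± 0.18 at 1 µM (SE, n = 3 per group), the values that chose the set.

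The groups at 0.25 and 0.5 µM, whose values the choice does not name, gave the same picture. They share the untreated libraries with the choice, and earlier results of these data were known when it was made. ODC1 fell 5.04-fold at 0.25 µM (log2 -2.33 ± 0.18, edgeR adjusted p = 3.44e-09) and rose 2.16-fold at 0.5 µM (log2 1.11 ± 0.18, adjusted p = 1.94e-05). Between 0.25 and 0.5 µM it rose 10.9-fold (log2 3.44 ± 0.19, edgeR adjusted p = 4.73e-10), and by 3.48 ± 0.16 on the log2 scale without both libraries labelled replicate 3. Between 0.15 and 0.25 µM the difference was -0.08 with a 95% interval of -0.44 to 0.29, and its sign turned with the scaling. The divergent transcript ODC1-DT had 52 to 360 counts per library, 0.386% of the ODC1 total, and the pseudogenes of the 10 genes held at most 0.0741% of the counts of their parents.

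S-adenosylmethionine decarboxylase (AMD1, chr6:110874770-110898879), which supplies the aminopropyl donor, gave 304, 358 and 342 CPM untreated and 159, 158 and 135 CPM at 0.15 µM. It stayed lower at 0.25 µM, with 95.3, 99.8 and 105 CPM, at 0.5 µM, with 108, 119 and 110 CPM, and at 1 µM, with 128, 107 and 122 CPM. The untreated libraries lay above all 12 treated ones. AMD1 fell 2.22-fold at 0.15 µM (log2 -1.15 ± 0.13, edgeR adjusted p = 6.89e-07) and 2.82-fold at 1 µM (log2 -1.49 ± 0.13, adjusted p = 8.96e-09). Its lowest mean was at 0.25 µM, with a log2 change of -1.74 ± 0.13 from untreated. The difference between 1 and 0.15 µM, -0.34 ± 0.13 (edgeR adjusted p = 0.0381), lost its call under 18 of 26 other settings. The step from 0.15 to 0.25 µM, -0.59 ± 0.13 (edgeR adjusted p = 0.00594), lost its call with libraries scaled by totals and with limma on either FPKM scale, down to -0.36.

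Spermidine synthase (SRM, chr1:11054584-11060020) showed the largest fall of the 10 genes at 0.5 and 1 µM. Untreated libraries gave 702, 670 and 829 CPM. At 0.15 µM the values were 264, 224 and 239 CPM, at 0.25 µM 95.4, 119 and 68.9 CPM, at 0.5 µM 60.8, 72.3 and 28.7 CPM, and at 1 µM 58.3, 53.1 and 61.1 CPM. No 2 neighbouring groups overlapped from untreated to 0.25 µM, whereas the 0.5 µM libraries overlapped with those at 0.25 and at 1 µM. SRM fell 3.03-fold at 0.15 µM (log2 -1.60 ± 0.25, edgeR adjusted p = 4.93e-05), 7.78-fold at 0.25 µM, 13.6-fold at 0.5 µM and 12.8-fold at 1 µM (log2 -3.67 ± 0.28, adjusted p = 2.40e-09). Replicate 3 at 0.5 µM held 0.432 times the mean of the other two libraries of its group, and without replicate 3 of 0.25 and 0.5 µM the log2 change at 0.5 µM was -3.43 ± 0.16. The step from 0.25 to 0.5 µM, -0.81 ± 0.25 (edgeR adjusted p = 0.0211), was lost without replicate 1 or replicate 2 at 0.25 µM and when only the libraries compared were fitted.

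Spermine synthase (SMS, chrX:21940709-21994837) fell with smaller steps. Its libraries gave 304, 338 and 360 CPM untreated, then 122, 139 and 141 CPM at 0.15 µM, 91.3, 97.0 and 88.3 CPM at 0.25 µM, 63.6, 67.8 and 48.7 CPM at 0.5 µM, and 52.6, 55.1 and 56.5 CPM at 1 µM. The first 4 groups in this order did not overlap, and the libraries at 0.5 and 1 µM did. The fall was 2.49-fold at 0.15 µM (log2 -1.32 ± 0.14, edgeR adjusted p = 3.16e-07) and 6.10-fold at 1 µM (log2 -2.61 ± 0.15, adjusted p = 1.97e-11). The step from 0.15 to 0.25 µM, -0.54 ± 0.14 (edgeR adjusted p = 0.0155), was lost without replicate 2 or replicate 3 at 0.15 µM and when only the libraries compared were fitted. Without replicate 3 of 0.25 and 0.5 µM the log2 change at 0.5 µM was -2.31 ± 0.13.

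**Figure D2:**
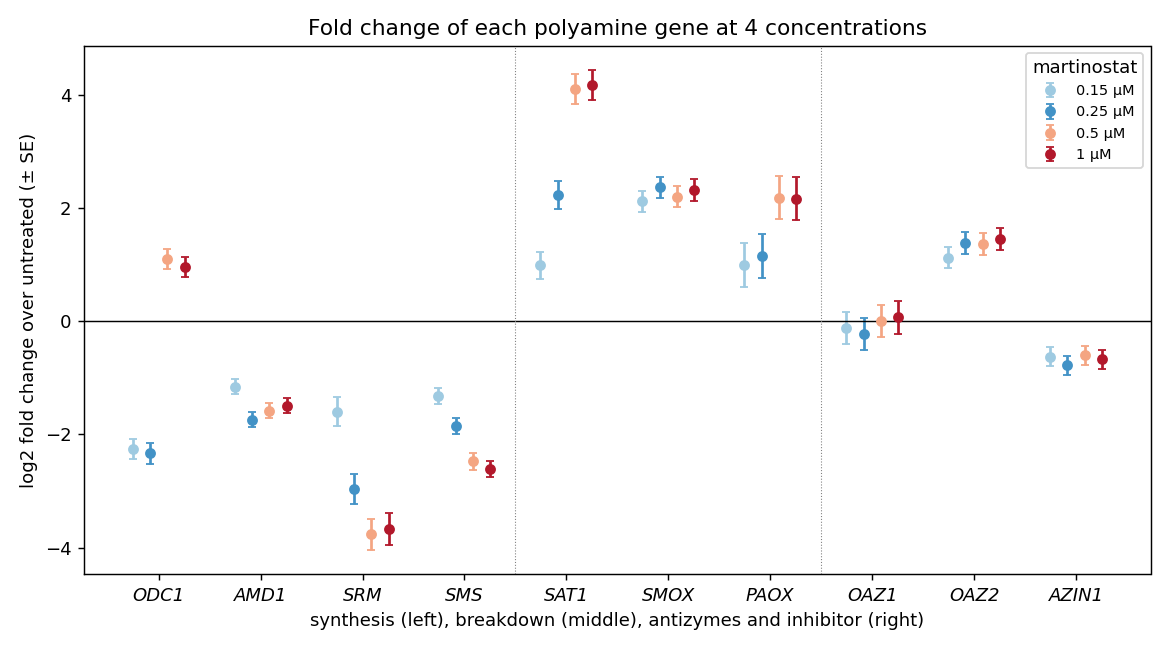
Log2 fold change over untreated (± SE of the edgeR fit, 3 libraries per group) for each gene at 4 martinostat concentrations, grouped by role. AMD1, SRM and SMS lie below 0 and SAT1, SMOX, PAOX and OAZ2 above 0 at all 4 doses, whereas ODC1 is at -2.26 and -2.33 at the lower doses and at 1.11 and 0.96 at the higher ones.

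SAT1 (chrX:23783173-23786210) transfers an acetyl group to spermidine and spermine and so starts their export or oxidation. It showed the largest rise of the 10 genes at the same 2 doses. Untreated libraries gave 15.4, 19.5 and 13.0 CPM, and the values rose to 31.6, 29.0 and 35.0 CPM at 0.15 µM and to 70.4, 66.4 and 88.0 CPM at 0.25 µM. At 0.5 µM the libraries gave 200, 210 and 421 CPM, and at 1 µM 314, 299 and 257 CPM. Groups did not overlap up to 0.5 µM, where replicate 3 held 2.05 times the mean of the other two libraries. SAT1 rose 1.99-fold at 0.15 µM (log2 1.00 ± 0.24, edgeR adjusted p = 0.00198), 4.69-fold at 0.25 µM and 18.1-fold at 1 µM (log2 4.18 ± 0.26, adjusted p = 1.92e-10). Both dose steps passed the test, with 1.23 ± 0.24 from 0.15 to 0.25 µM (edgeR adjusted p = 0.00251) and 1.89 ± 0.24 from 0.25 to 0.5 µM (adjusted p = 9.64e-06). Without both replicates 3 the latter was 1.60 ± 0.16, and the change at 0.5 µM against untreated 3.72 ± 0.15.

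Spermine oxidase (SMOX, chr20:4120980-4187747), which turns spermine directly into spermidine, reached its higher level at the lowest dose. It gave 4.83, 5.21 and 5.24 CPM across the untreated libraries in rising order. At 0.15 µM the libraries gave 20.1, 18.9 and 27.7 CPM, at 0.25 µM 32.2, 25.5 and 21.4 CPM, at 0.5 µM 27.1, 22.8 and 20.7 CPM, and at 1 µM 24.1, 27.7 and 24.8 CPM. All 12 treated libraries lay above the untreated ones, and the 4 dose groups overlapped. The rise was 4.35-fold at 0.15 µM (log2 2.12 ± 0.19, edgeR adjusted p = 3.42e-08) and 5.00-fold at 1 µM (log2 2.32 ± 0.19, adjusted p = 3.47e-09). The difference between 1 and 0.15 µM was 0.20 with a 95% interval of -0.17 to 0.57.

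Peroxisomal N1-acetyl polyamine oxidase (PAOX, chr10:133379261-133391694) acts on the acetylated products of SAT1, and its counts were low. The untreated libraries held 46 counts together, or 0.548 to 0.695 CPM, and the libraries at 1 µM 235 counts, or 2.14 to 3.19 CPM. At 0.15 µM the range was 0.671 to 1.72 CPM and overlapped with the untreated one. PAOX rose 4.50-fold at 1 µM (log2 2.17 ± 0.38, edgeR adjusted p = 6.06e-05). The call at 0.15 µM (log2 0.99 ± 0.39, edgeR adjusted p = 0.0408) was lost under 11 of 26 other settings, among them each fit without 1 of the 3 untreated libraries. Of its exon bases, 61.0% lie under another gene on the same strand, ENSG00000254536, so its counts are uncertain. Without replicate 3 of 0.25 and 0.5 µM the log2 changes from untreated at these doses were 1.34 ± 0.39 and 2.47 ± 0.37. The step between them, 1.03 ± 0.35 (edgeR adjusted p = 0.0322), was lost under 7 of 27 other settings, among them those without replicate 1 or 3 at 0.25 µM or replicate 1 or 2 at 0.5 µM, and the call at 0.25 µM without replicate 2 of that dose.

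Antizyme 1 (OAZ1, chr19:2269509-2273490), the main negative regulator of ornithine decarboxylase, was abundant and variable. Untreated libraries gave 917, 856 and 885 CPM, and treated libraries ranged from 485 CPM (replicate 3 at 0.25 µM) to 1276 CPM (replicate 1 at 0.5 µM). The log2 difference from untreated was -0.12, -0.23, 0.01 and 0.07 at the rising doses, each with an SE of 0.29, and the 95% interval at 1 µM ran from -0.53 to 0.67. Its sign depended on the scaling at 0.15 and 0.25 µM. Replicate 3 held 0.542 times the mean of the other two libraries at 0.25 µM and 0.447 times at 0.5 µM. Without these 2 libraries the log2 difference was 0.036 at 0.25 µM and 0.35 at 0.5 µM (edgeR adjusted p = 0.871 and 0.0847).

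Antizyme 2 (OAZ2, chr15:64687573-64703281), a less abundant relative with the same frameshift, rose at every dose. Its libraries gave 80.3, 83.9 and 81.0 CPM untreated, 168, 161 and 208 CPM at 0.15 µM, 260, 222 and 158 CPM at 0.25 µM, 244, 231 and 159 CPM at 0.5 µM, and 211, 252 and 210 CPM at 1 µM. Every treated library lay above every untreated one, and the dose groups overlapped. OAZ2 rose 2.19-fold at 0.15 µM (log2 1.13 ± 0.19, edgeR adjusted p = 6.11e-05) and 2.75-fold at 1 µM (log2 1.46 ± 0.19, adjusted p = 1.70e-06). Without replicate 3 of 0.25 and 0.5 µM the log2 change was 1.58 ± 0.14 at each of these doses.

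Antizyme inhibitor 1 (AZIN1, chr8:102826111-102893864), which binds antizymes and frees ornithine decarboxylase from them, was modestly lower. Untreated libraries gave 180, 203 and 192 CPM. The values were 129, 145 and 99.3 CPM at 0.15 µM, 90.7, 134 and 110 CPM at 0.25 µM, 124, 147 and 108 CPM at 0.5 µM, and 121, 109 and 131 CPM at 1 µM. All treated libraries lay below the untreated ones on the TMM scale. AZIN1 fell 1.54-fold at 0.15 µM (log2 -0.62 ± 0.17, edgeR adjusted p = 0.00494) and 1.59-fold at 1 µM (log2 -0.67 ± 0.17, adjusted p = 0.00188). Under the other scalings named above, these calls were lost and the log2 change shrank to as little as -0.18 and -0.21.

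The steps between doses differed between genes. From 0.15 to 0.25 µM, SAT1 rose and AMD1, SRM and SMS fell, 4 of the 9 genes against 12.3% of all tested genes (4.96% higher, 7.32% lower). From 0.25 to 0.5 µM, SAT1 and PAOX rose and SRM and SMS fell, again 4 of 9, against 30.4%; with the replicate numbers of these 2 groups as a block, the same counts of 2 higher and 2 lower were found. Between 0.15 and 1 µM, SAT1 and PAOX rose and AMD1, SRM and SMS fell, 5 of 9 against 44.5% (21.5% higher, 23.1% lower). Between 0.5 and 1 µM edgeR called none of the 9 genes and 0.0% of all tested genes, none of the 9 had an unadjusted p below 0.05, and DESeq2 and limma called 0 of the 9 as well. Log2 differences in this last step ran from -0.15 (ODC1) to 0.12 (SMOX) over the 10 genes.

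Levels per kilobase of exon order the 10 genes within a group, with the length taken as the union of all annotated exons of a gene. The lengths of the transcripts present were not measured, and the order depends on the length used. Untreated AMD1 and SMS had 335 ± 27.5 and 334 ± 28.2 CPM, but exon unions of 10.193 and 2.13 kb. In untreated cells SRM (387 ± 44.5 CPM per exon kb, SD, n = 3) and ODC1 (376 ± 5.70) were highest, and their libraries overlapped. OAZ1 (258 ± 8.94) and SMS (157 ± 13.2) followed, then AMD1 (32.8 ± 2.70) and AZIN1 (31.2 ± 1.89), which overlapped. OAZ2 (10.7 ± 0.251), SAT1 (6.44 ± 1.33), SMOX (1.73 ± 0.0793) and PAOX (0.269 ± 0.0351) were the lowest, without overlap between neighbours. At 1 µM the order was changed: ODC1 (728 ± 116 CPM per exon kb) was highest, followed by OAZ1 (271 ± 53.7) and SAT1 (117 ± 11.8), without overlap between them. SRM (30.4 ± 2.16) and OAZ2 (29.3 ± 3.16) overlapped, and SMS (25.7 ± 0.918), AZIN1 (19.6 ± 1.86), AMD1 (11.7 ± 1.06), SMOX (8.66 ± 0.651) and PAOX (1.22 ± 0.241) followed.

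Ratios of 2 genes within a library do not depend on library scaling, and 4 such ratios were compared with untreated by two-sided exact permutation tests, for which 3 against 3 libraries cannot go below p = 0.1. The ratio OAZ2:OAZ1 was 0.0924 ± 0.00533 untreated (SD, n = 3) and 0.219 ± 0.00636, 0.288 ± 0.0320, 0.257 ± 0.0676 and 0.244 ± 0.0213 at the rising doses. The ratio was above the untreated range in all 3 libraries of every dose (exact p = 0.1 each, 0.16 after Benjamini-Hochberg adjustment over 16 tests). The ratio SMS:SRM was 0.457 ± 0.0410 untreated and 0.559 ± 0.0838, 1.02 ± 0.237, 1.23 ± 0.409 and 0.954 ± 0.0731 at the rising doses. It exceeded the untreated range in all 3 libraries from 0.25 µM on (exact p = 0.1, adjusted 0.16) and in 2 of 3 at 0.15 µM (exact p = 0.2, adjusted 0.267).

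The ratio SMOX:PAOX was 8.50 ± 1.04 untreated, 20.2 ± 6.88 at 0.15 µM and 19.6 ± 3.43 at 0.25 µM, both with exact p = 0.1 (adjusted 0.16). It returned to 8.87 ± 2.33 at 0.5 µM, where the permutation test gave an exact p of 0.9. The ratio of 9.68 ± 2.87 found for 1 µM had an exact p of 0.6 and an adjusted one of 0.64. The ratio AZIN1:OAZ1 was 0.217 ± 0.0206 untreated and had means of 0.158, 0.161, 0.159 and 0.134 at the rising doses. Exact p for it was 0.2, 0.3, 0.3 and 0.1, and 0.267, 0.343, 0.343 and 0.16 after adjustment, so only the 1 µM libraries all lay below the untreated ones.

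**Figure D3:**
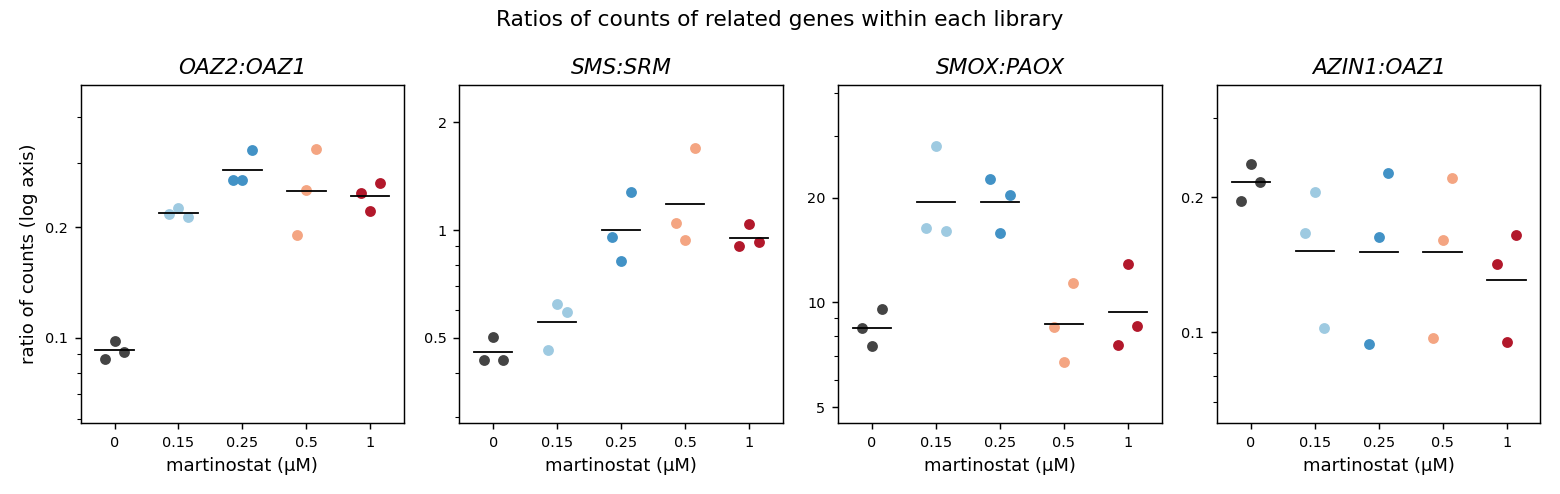
Ratio of counts (log axis) of 2 related genes within each library against martinostat concentration, with 1 point per library and a bar at the geometric mean of 3. OAZ2:OAZ1 lies above its untreated points at every dose, SMS:SRM from 0.25 µM on, and SMOX:PAOX at 0.15 and 0.25 µM but not at 0.5 or 1 µM.

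The wider pathway was described by 6 lists of 44 genes, of which 37 were tested. At the rising doses 10, 9, 14 and 14 of them were higher and 17, 18, 16 and 16 lower than untreated, with list medians of -0.34, -0.41, 0.16 and 0.10. With libraries scaled by totals, the number lower at 0.15 µM was 9, and at 0.25 µM 15 were higher and 11 lower, so the balance at 0.25 µM turned. Limma on the FPKM scales gave 9 and 8 lower at 0.15 µM and 11 lower at 0.25 µM. The TMM counts stand beside the same 51.2%, 62.3%, 66.9% and 66.2% of all tested genes called and medians of 0.28, 0.32, 0.34 and 0.32. Of each list, the called gene of at least 10 CPM with the largest change at 1 µM is named below.

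At 1 µM, where 38.8% of all tested genes were called higher and 27.5% lower, 3 of 8 tested genes of ornithine supply and use increased and 2 decreased. SLC25A15, the mitochondrial ornithine carrier, fell from 77.7 ± 2.63 to 14.1 ± 1.51 CPM (log2 -2.47 ± 0.20, edgeR adjusted p = 2.88e-09). Of 8 genes of S-adenosylmethionine supply and methionine salvage, 2 were higher and 5 lower (list median -1.48). ADI1, the acireductone dioxygenase of the salvage path, fell from 98.0 ± 6.73 CPM to a range of 8.84 to 11.3 CPM (log2 -3.28 ± 0.30, edgeR adjusted p = 5.40e-08). Of the 4 genes of hypusine formation, the modification of eIF5A that consumes spermidine, none was higher and 2 were lower. DHPS, which was not called, had 89, 110 and 59 counts untreated and 106, 124 and 82 at 1 µM. Of its exon bases, 38.8% lie under another gene on the same strand, so its counts are uncertain. EIF5A itself fell from 1099 ± 9.93 to 487 ± 39.8 CPM at 0.15 µM and to 299 ± 47.9 CPM at 1 µM (log2 -1.88 ± 0.23, edgeR adjusted p = 8.84e-07).

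Of 5 tested transport genes, 2 increased and 3 decreased, and SLC18B1, a vesicular polyamine transporter, fell from 65.4 ± 3.44 to 13.5 ± 2.96 CPM (log2 -2.28 ± 0.17, edgeR adjusted p = 1.34e-09). Of 8 further breakdown and antizyme family genes, 7 were higher and none lower (list median 3.97), against the 38.8% and 27.5% of all tested genes. Some of these were near the floor in the untreated libraries, with 0, 0 and 6 counts for AOC1, 2, 0 and 0 for MAOB and 7, 5 and 10 for AGMAT. Such genes passed the filter through treated libraries and could hardly be called lower, so the count and the median of this list are not read as a result. AZIN2, a second antizyme inhibitor, was also near the floor, with 20, 10 and 12 counts untreated. It had 0.558 ± 0.229 CPM untreated, 4.16 ± 0.596 at 0.15 µM and 26.9 ± 4.31 at 1 µM (log2 5.59 ± 0.27), in the opposite direction to AZIN1. Its mean reached 10 CPM only through the libraries at 0.5 and 1 µM, so this rise is given without a test. Antizyme inhibitor levels per exon kb still differed at 1 µM, with 19.6 ± 1.86 CPM per exon kb for AZIN1 and 2.37 to 3.28 for the 3 libraries of AZIN2.

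All 4 tested transcription factors known to act at ODC1 or SAT1 were lower at 1 µM on the TMM scale, against 27.5% of all tested genes. For SP1 much of this difference came with the scaling. Its counts were 3696, 4105 and 4128 untreated and 3390, 2920 and 3484 at 1 µM. Library totals were 29555379, 32805574 and 32593881 untreated and 27598821, 28441402 and 27974537 at 1 µM. The TMM factors were 0.784 to 0.828 untreated and 1.02 to 1.03 at 1 µM. MYC gave 574, 670 and 587 CPM untreated, 470, 468 and 258 CPM at 0.15 µM, 233, 351 and 273 CPM at 0.25 µM, 24.2, 26.4 and 38.5 CPM at 0.5 µM, and 29.0, 32.0 and 43.9 CPM at 1 µM. The groups at 0.15 and 0.25 µM overlapped, and the 6 libraries at 0.5 and 1 µM lay far below all others. MYC fell by 3.27 on the log2 scale from 0.25 to 0.5 µM (SE 0.26, edgeR adjusted p = 3.34e-08), the step in which ODC1 rose by 3.44 ± 0.19. SRM, which holds CACGTG in its promoter window as ODC1 does in its second one, fell by 0.81 in that step. This SRM call was lost under 3 of 27 other settings. Binding of MYC was not measured, and a link between these changes was not tested.

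**Figure D4:**
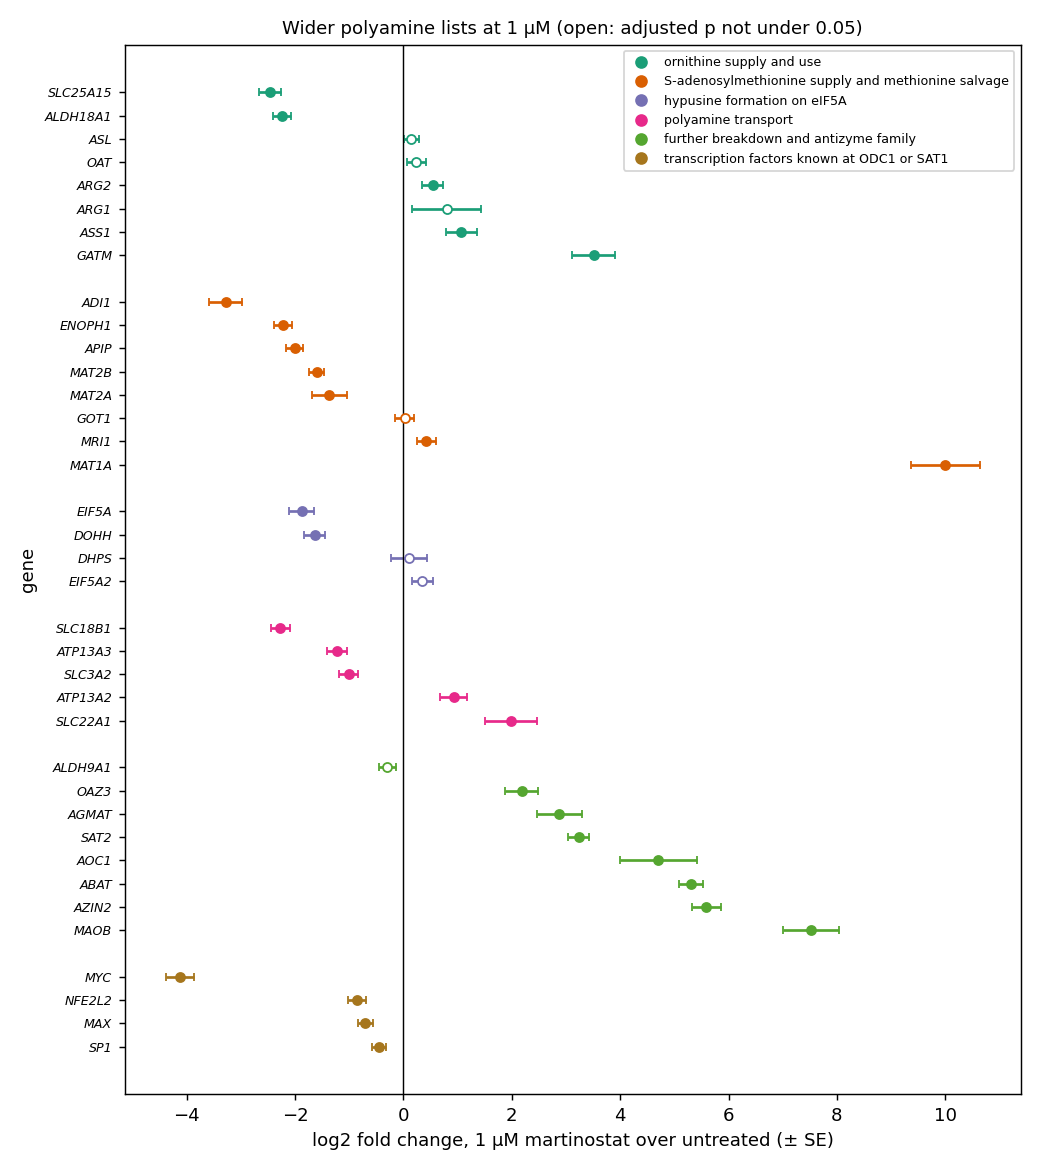
Log2 fold change at 1 µM over untreated (± SE of the edgeR fit, 3 libraries per group) for the 37 tested genes of 6 polyamine-related lists, with open points for genes not called. The further breakdown and antizyme family stands to the right of 0 except ALDH9A1, and the 4 transcription factors to the left, with MYC at -4.13; the fitted value of MAT1A, at 0 counts in all untreated libraries, is not a bound.

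The genes whose log2 CPM followed ODC1 most closely over the 15 libraries, among 10127 genes of at least 10 CPM, were RANBP10 (Pearson r = 0.987), H3-3B (r = 0.985), AFMID (r = 0.984) and USP19 (r = 0.981). These are descriptions over 15 libraries in 5 dose groups that share scaling, and carry no test. RANBP10 had means of 74.9, 43.1, 39.1, 94.0 and 95.7 CPM from untreated through the rising doses. H3-3B, a gene for histone H3.3, had means of 540, 314, 310, 776 and 789 CPM in the same order. As for ODC1, the means of both were below untreated at 0.15 and 0.25 µM and above it at 0.5 and 1 µM, over a smaller range.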

How the data were processed

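Per the labels and the study's methods, the authors trimmed reads with Trim Galore 0.6.10, and the methods also name Trimmomatic for this step. Reads were then aligned to hg38 with HISAT2 2.2.1 and sorted with SAMtools 1.21, and genes of GENCODE release 38 were counted with featureCounts 1.5.3. The strand setting and the treatment of multiply mapped reads are not given in the sources used here. The deposited counts, whole numbers per gene and library, were the basis of all main values. The deposited FPKM values were made by the authors from the same counts without a correction for composition, and the length they imply was the genomic span for 95.7% of 11057 genes checked, so FPKM served as an alternative only. Levels per exon kb used exon unions of GENCODE 44, and 99.8% of identifiers had a symbol.

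Counts were tested with edgeR 4.0.16 (filterByExpr, TMM, robust quasi-likelihood fit of all 15 libraries, 10 residual degrees of freedom, Benjamini-Hochberg over 23711 genes) in R 4.3.3. Alternatives used DESeq2 1.42.0, limma 3.58.1 on log2(FPKM + 1) and log2(FPKM + 0.1), other scalings and filters, and fits without each library. Data simulated from the main fit were used to test edgeR with and without the replicate number as a block, DESeq2, and limma on log2 CPM. The other settings, limma on FPKM among them, were not tested on simulated data. Libraries of a group differed by more than sampling noise (chi-square per degree of freedom of at least 5.85), so none was counted as a duplicate. Deviations from group means were correlated between libraries of equal replicate number at 0.25 and 0.5 µM (0.266, 0.268 and 0.579), and by at most 0.0918 for other groups. The deviations of a group cancel, so 2 replicate 3 libraries that stand apart in the same way also raise the values of the other replicates. Pairing by replicate number therefore cannot be told apart from this, unlike numbers were not compared, and no label ties the libraries. Genes and lists were chosen with earlier results of these data known. Named were all 10 genes, the called gene with the largest change at 1 µM of each list, the 4 genes most correlated with ODC1, each with a mean of at least 10 CPM, and pseudogenes and divergent genes of the 10. Motif searches used RefSeq windows of GRCh38.p14.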

Additional observations from a re-analysis of the deposited data

How the results depend on the processing

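Of 27 alternative settings, 2 were chosen after seeing the data, and each value could be recomputed under 26 or 27 of them. The calls of SRM, SMS, SAT1, SMOX and OAZ2 against untreated kept their direction and their side of the threshold under all of them at all 4 doses, as did AMD1. For the 9 genes other than ODC1, the number higher from 0.15 to 0.25 µM was 2 without replicate 3 of 0.25 and 0.5 µM. From 0.25 to 0.5 µM the number higher was 1 with library totals, with no filter or with only the libraries compared, and in the last of these the number lower was also 1. Leaving out 1 library in turn gave 1 to 2 higher and 1 to 2 lower in this step, and 1 to 2 higher between 0.15 and 1 µM. With the replicate number as a block the step from 0.25 to 0.5 µM kept 2 higher and 2 lower, and ODC1 rose by 3.44 in it (3.43 with only these 6 libraries); over all comparisons the block ended the calls of AMD1 between 1 and 0.15 µM (adjusted p = 0.0537) and of PAOX at 0.15 µM (adjusted p = 0.0521).

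Of the 37 genes of the wider lists, the number lower at 0.15 µM was 9 with library totals, 9 with limma on log2(FPKM + 1) and 8 on log2(FPKM + 0.1). At 0.25 µM the number higher was 15 with library totals and 14 with TMM factors estimated on genes with 10 CPM or more, and the number lower 11 with totals and with either limma fit.

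The log2 difference of ODC1 between 0.25 and 0.15 µM turned positive with RLE factors (0.015), library totals (0.080), TMM factors estimated on genes with 10 CPM or more (0.080), at least 10 counts in every library (0.032), DESeq2 (0.013), limma (0.076 and 0.078 with pseudocounts of 1 and 0.1) and without replicate 3 of 0.25 and 0.5 µM (0.063); without 1 library in turn it ran from -0.16 to 0.061. OAZ1 turned positive at 0.15 and 0.25 µM with library totals (0.24, 0.27), the stricter TMM factors (0.15, 0.19), at least 10 counts in every library (0.059, 0.054) and limma (0.23, 0.24 with either pseudocount), and at 0.25 µM without both replicates 3 (0.036). At 0.5 µM it turned negative with no filter (-0.0045) and with the replicate block (-0.052). Without 1 library in turn OAZ1 ran from -0.44 to 0.035 at 0.25 µM, from -0.34 to 0.30 at 0.5 µM (0.35 without both replicates 3) and from -0.10 to 0.17 at 1 µM. The log2 ratio SMOX:PAOX against untreated ran from -0.16 to 0.22 at 0.5 µM and from -0.074 to 0.31 at 1 µM. The causes were not tested. MYC lost its call at 0.15 µM under 9 of 26 settings and at 0.25 µM under 3. With 3 libraries per group, the intervals around PAOX and OAZ1 are wide, and 46 counts of PAOX untreated limit its fold.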

Other observations

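Among the genes of the methionine salvage list, chosen here after their values were seen, MTAP, the phosphorylase that recycles the methylthioadenosine left over from spermidine and spermine synthesis, had 0 counts in 13 of 15 libraries and 3 counts in all. In each untreated library 0 counts allow a level of up to 0.123 CPM (3 counts in the smallest library, counting error only). Among the other salvage genes, ENOPH1 and APIP were present and fell by 2.22 ± 0.17 and 2.01 ± 0.16 (SE) on the log2 scale at 1 µM. No test is given for either, since both were picked with their values known. MRI1 of the same list went the other way, from 38.1 ± 0.689 CPM untreated to 51.1 ± 1.15 at 1 µM (SD, n = 3). GOT1 had 111 ± 8.58 CPM untreated and 112 ± 5.18 at 1 µM. MAT1A, the liver form of methionine adenosyltransferase, had 0 counts in the 3 untreated libraries and 4.48 CPM on average at 1 µM, at least 36.5-fold higher than 3 counts per library. With MAT1A at that bound the median of its list at 1 µM was still -1.48.

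SAT2, a relative of SAT1, and ABAT, which breaks down the GABA that can be formed from putrescine, were also named after their values were seen. SAT2 rose by 1.92 ± 0.19 at 0.15 µM and by 3.24 ± 0.20 at 1 µM on the log2 scale, and ABAT by 2.84 ± 0.20 and 5.31 ± 0.22 (SE, n = 3 per group). No test is given, since these values led to the choice.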
